A study of Homo sapiens with 40 samples.

Results

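SKMES1 is an established human cell line of lung squamous cell carcinoma, and its RNA was compared between cells given GSK3368712 (GSK712 in the sample titles) and cells given the solvent dimethyl sulfoxide (DMSO). The comparison was chosen by its name alone: all genes of the SKMES1 entries of the authors' deposited table that carry a value, which is 14367 of 58336 gene IDs and of 135786 gene and line entries with values. The SKMES1 GSK712 group and the SKMES1 DMSO group each have 2 RNA-seq libraries, of 40 libraries from 10 non-small cell lung cancer lines, and no genetic change is labelled in either. Titles end in D5 and the entry's name holds 2000, and neither is spelled out in the labels. Nothing in the labels tells if both libraries of a group came from separate cultures, so the deposited standard errors may cover technical spread only. SKMES1 is a single line and does not stand for squamous tumours.

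GSK3368712 inhibits the type I protein arginine methyltransferases, which place asymmetric dimethylarginine on histones, transcription factors and RNA-binding proteins. PRMT1 is the main enzyme of this family, and its marks on histone tails and on splicing and RNA-binding factors bear on transcription and RNA processing. Squamous lung carcinomas are epithelial tumours known for the transcription factors TP63 and SOX2 and for keratins of stratified epithelia.

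Values per library were not analysed here, so no value is given for single libraries. For each gene the authors' deposited table gives a log2 fold change with its standard error (SE), a DESeq2 adjusted p and the mean normalized count over the libraries of the line. A positive log2 fold change is read as higher with GSK712, since the entry names put GSK712 before DMSO, and the values themselves offer no check of that direction. Group means in normalized counts are approximate: they were computed from the deposited mean count and fold change, with equal weight for both groups. They are not corrected for gene length and are compared only within a gene. Genes that share their strand with an overlapping gene can share its reads, so that their counts are uncertain. This touches many of the genes named here, among them KRT7 (with KRT86), MICA (with HCP5), TREX1 (with ATRIP), PRMT1 (with ADM5), HLA-B and HLA-C (with each other) and MCL1 (with ADAMTSL4-AS1). It also touches ELF3, THSD4, SFRP1, MTAP, WDR77, IFIT2, CXCL11, TAP2 and PPARA, each with an overlapping locus that has a clone-based name. A gene is called higher or lower at an adjusted p of at most 0.05. Fold changes describe RNA relative to all RNA of a library, and fewer cells of a kind and less RNA per cell cannot be told apart.

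The squamous label was checked against markers. Of 12 squamous markers, 3 had a value: TP63 averaged about 1822 normalized counts in GSK712 cells and 1526 in DMSO cells, PKP1 16639 and 13675, and KRT17 304 and 41. SOX2, KRT5, KRT14, KRT6A, KRT6B, DSG3, DSC3, TRIM29 and CLCA2 had no value in SKMES1, so most of the defining squamous set is not seen here. Epithelial markers had values for 6 of 8 genes (EPCAM, KRT7, KRT8, KRT18, KRT19 and CLDN4) and none for CDH1 or ESRP1. Mesenchymal markers had values for 6 of 7 genes, with VIM, the intermediate filament of mesenchymal cells, at about 155108 normalized counts in GSK712 cells and 126074 in DMSO cells. None of 6 immune, 4 endothelial or 5 neuroendocrine markers had a value, and of 7 glandular lung markers only MUC1 had one. In longer lists, 2 of 12 immune, 2 of 12 glandular lung and 2 of 9 neuroendocrine genes had a value. Of 7 fibroblast markers 4 had values (COL1A1, LUM, PDGFRA and PDGFRB). The measured RNA thus held epithelial, mesenchymal and some fibroblast transcripts together and few of the squamous ones.

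With GSK712 the SKMES1 transcriptome changed in both directions, in about equal numbers of genes and mostly by little. Of 14367 genes, 4514 were called (31.4%), 2267 of them higher (15.8%) and 2247 lower (15.6%). The called genes had a median absolute log2 fold change of 0.46, and the median of all genes was 0.00. A change of at least 1 on the log2 scale was called for 431 genes that rose and 201 that fell, together 4.40%. Large changes were mostly in genes of low count: 393 of the 431 and 167 of the 201 lay below the median count of 1564. Calls also followed precision, since the share of genes called was 22.1% in the lowest of 4 equal groups by count and 38.1% in the highest, with median SEs of 0.306 and 0.083. Protein-coding genes gave 1982 higher and 2072 lower calls of 12220, long noncoding RNAs 182 and 134 of 1264, and pseudogenes 79 and 28 of 637.

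**Figure D1:**
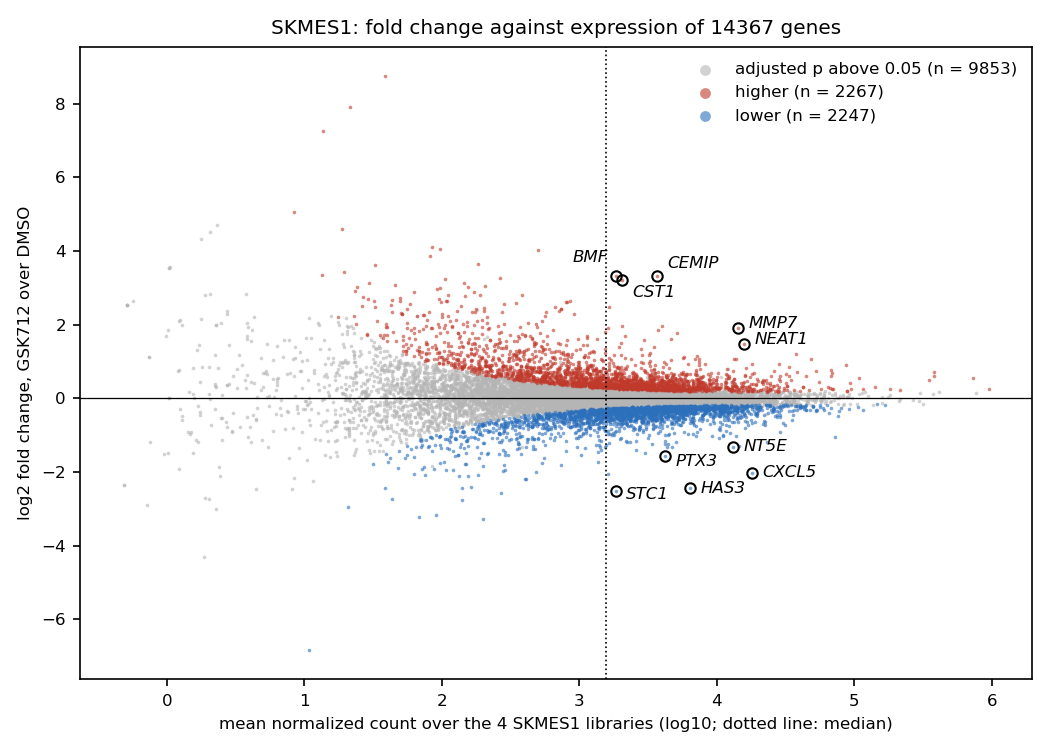
Each point is a gene with a value in SKMES1, with the mean normalized count of the 4 libraries on a log10 axis (x) and the log2 fold change of GSK712 over DMSO (y). Red points are the 2267 genes called higher, blue points the 2247 called lower and grey points the rest; the circled genes lie right of the dotted median count of 1564, where 38 genes rose and 34 fell by at least 1 on the log2 scale.

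The enzymes that the compound targets changed little as RNA. In the authors' deposited table PRMT1 stood at a log2 fold change of 0.04 (SE 0.079, adjusted p = 0.765), CARM1 at 0.04 (adjusted p = 0.8), PRMT2 at 0.12 (adjusted p = 0.299) and PRMT6 at −0.24 (adjusted p = 0.0509). PRMT3, the ribosome-linked member, was the only one of 5 measured that passed, at −0.35 (SE 0.107, adjusted p = 0.00541) in the authors' deposited table. Of 8 other methyltransferases and partners, only WDR77, the partner of PRMT5, passed, at −0.29 (adjusted p = 0.00258) in the authors' deposited table. The methylthioadenosine phosphorylase gene MTAP, whose loss is known to sensitize cells to arginine methyltransferase inhibition, was expressed and stood at −0.12 (adjusted p = 0.28) in the authors' deposited table.

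The largest rises among genes with more than the median count were those of CEMIP, BMF and CST1. CEMIP, which binds hyaluronan and takes part in its breakdown, averaged about 6710 normalized counts in GSK712 cells and 674 in DMSO cells, a 9.96-fold difference (log2 3.32, 95% interval 2.76 to 3.87; adjusted p = 1.65e-29 in the authors' deposited table). The gene lies on chromosome 15 from 80779343 to 80951776 (GRCh38, GENCODE 29). BMF, which binds and neutralizes pro-survival BCL2 proteins, averaged about 3381 normalized counts in GSK712 cells and 342 in DMSO cells, 9.90-fold apart (log2 3.31, 95% interval 3.08 to 3.53; adjusted p = 8.36e-174 in the authors' deposited table). BMF lies on chromosome 15 from 40087890 to 40108892. CST1, a secreted cysteine protease inhibitor, averaged about 3690 and 399 normalized counts in GSK712 and DMSO cells, with a wide interval on the log2 scale of 1.97 to 4.45. MMP7 (matrilysin, a matrix protease of epithelial cells) averaged about 22534 in GSK712 cells and 6046 in DMSO cells. The long noncoding RNA NEAT1, the scaffold of paraspeckles, averaged about 23072 in GSK712 cells and 8311 in DMSO cells. PBXIP1, INAVA, C1S (a protease of the complement cascade), SCG5 and ELF3 (an epithelial transcription factor) completed the higher end at log2 fold changes of 1.35 to 1.97 in the authors' deposited table, with PHGDH next outside it at 1.22. The calls of ELF3, and of CGB5 and CGB8 below, did not hold with SEs 1.5 times as large. C1S overlaps EMG1 on the same strand, and counting between the genes is uncertain. ANXA8 and ANXA8L1 are near-copies, as are CGB5 and CGB8, so the split of reads within each pair is uncertain. In the authors' deposited table ANXA8 stood at 1.61, ANXA8L1 at 1.91 and the chorionic gonadotropin genes at 1.85 and 1.79. LINC00842, which lies beside ANXA8L1 on chromosome 10, stood at 1.97 in the authors' deposited table. It shares its strand with overlapping loci, so its counts are uncertain too.

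At the lower end stood STC1, HAS3, NTSR1 and CXCL5. STC1, a secreted glycoprotein hormone, averaged about 549 normalized counts in GSK712 cells and 3134 in DMSO cells, 5.71-fold lower (log2 −2.51, 95% interval −2.78 to −2.24). HAS3, a hyaluronan synthase of the plasma membrane, averaged about 1977 in GSK712 cells and 10772 in DMSO cells, 5.45-fold lower (log2 −2.45, 95% interval −2.61 to −2.28; adjusted p = 8.36e-174 in the authors' deposited table). HAS3 lies on chromosome 16 from 69105564 to 69118719. NTSR1, the neurotensin receptor, averaged about 629 in GSK712 cells and 2617 in DMSO cells, and CXCL5, a neutrophil-attracting chemokine, about 7093 and 29030. NT5E, the ectonucleotidase CD73, averaged about 7490 in GSK712 cells and 18739 in DMSO cells. AREG (amphiregulin, a ligand of EGFR) averaged about 8391 in GSK712 cells and 20504 in DMSO cells. PTX3, ADCY3, ZBED1, SPHK1 (which makes sphingosine 1-phosphate), THSD4, LINC02582, SFRP1 (a secreted Wnt antagonist), OPN3 and TFPI2 (a protease inhibitor of the matrix) completed the lower end at −1.57 to −1.24 in the authors' deposited table, with SEMA3C next outside it at −1.20. ZBED1 shares its strand with the overlapping DHRSX, and OPN3 with CHML, so their counts are uncertain.

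**Figure D2:**
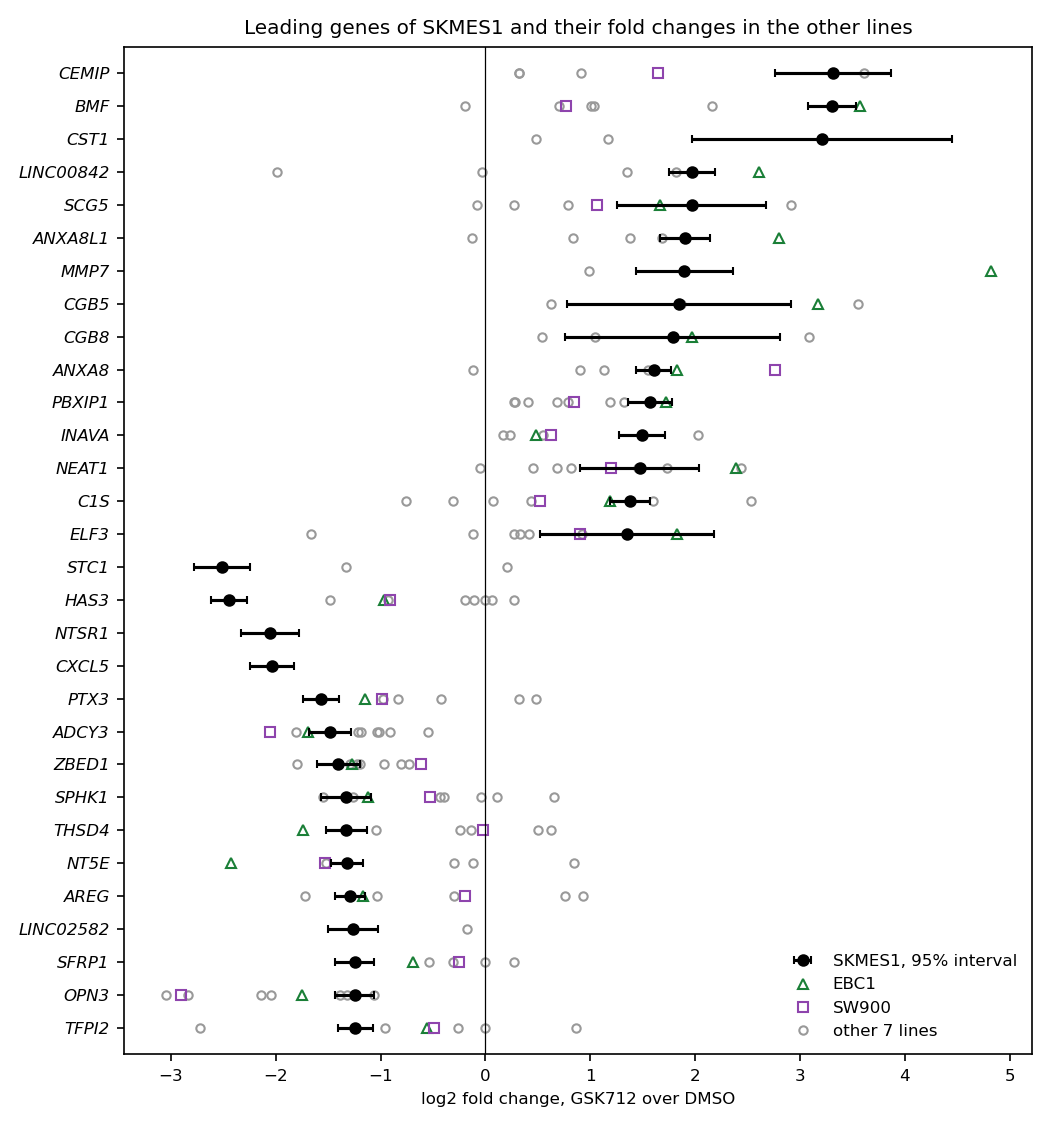
Black points are the log2 fold changes of GSK712 over DMSO (x) of the 15 leading higher and 15 leading lower genes of SKMES1 (y), with 95% intervals. Triangles, squares and open circles are the same gene in EBC1, SW900 and the other 7 lines where it has a value; HAS3 at −2.45 in SKMES1 lies below its values in all other lines (−1.48 to 0.27), whereas ADCY3 at −1.49 lies among them (−2.05 to −0.55).

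Hyaluronan, the large glycosaminoglycan of the pericellular matrix, is made by membrane synthases, cleaved by hyaluronidases and CEMIP, and bound by CD44 and HMMR. Of 17 genes of its turnover and receptors, 9 had values, 2 were higher and 6 lower (beside 15.8% and 15.6% of all genes), with a median log2 fold change of −0.40. Both measured synthases fell: HAS3 as above, and HAS2 to about 634 normalized counts in GSK712 cells, against 2119 in DMSO cells (log2 −1.74, SE 0.136, in the authors' deposited table). The hyaluronidase HYAL3 stood at −1.22 (adjusted p = 4.71e-05) and HYAL2 at −0.40 (adjusted p = 0.00046) in the authors' deposited table, and both share their strand with overlapping genes. The receptor HMMR stood at −0.54 and the receptor CD44 at −0.23 (adjusted p = 0.0177) in the authors' deposited table. HMMR is also a member of the mitosis and G2/M list below and is counted in both. CEMIP rose, as did the hyaluronan-binding proteoglycan VCAN, at 0.34 (adjusted p = 0.00506) in the authors' deposited table. UGDH, which makes the sugar precursor, stood at −0.14 (adjusted p = 0.104) in the authors' deposited table.

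Members of the BCL2 family, which set the threshold of mitochondrial apoptosis, moved in both directions. Of 18 measured, 5 were higher and 5 lower, that is 27.8% each way, beside 15.8% and 15.6% of all genes. The higher genes were BH3-domain or related pro-apoptotic members: BMF, BBC3 (PUMA; about 239 normalized counts in GSK712 cells and 78 in DMSO cells), BIK, PMAIP1 and BNIP3L. Lower genes included the pro-survival members BCL2A1 (about 155 in GSK712 cells and 424 in DMSO cells), BCL2L1 (8138 and 9772) and MCL1 (26057 and 30560), beside BNIP3 and BOK, which are known as pro-apoptotic. Targets of p53 gave 2 higher (FDXR and SESN2) and 3 lower (DDB2, AEN and TIGAR) of 20, a share of 25% that lies below the 31.4% called over all genes, and CDKN1A, the p21 cell-cycle inhibitor, stood at −0.08 (adjusted p = 0.645) in the authors' deposited table.

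ATF4 is the transcription factor of the amino acid and integrated stress response, and its targets supply amino acid synthesis, transport and tRNA charging. Of 31 measured genes of this list 21 were higher and none lower, that is 67.7% higher against 15.8% of all genes, with a median log2 fold change of 0.41. NUPR1, a stress-induced chromatin protein, averaged about 943 normalized counts in GSK712 cells and 58 in DMSO cells (log2 4.01, SE 0.248, in the authors' deposited table). ATF4 itself averaged about 16279 in GSK712 cells and 9815 in DMSO cells. PHGDH, the first enzyme of serine synthesis, averaged about 4565 in GSK712 cells and 1956 in DMSO cells, ASNS (asparagine synthetase) about 3196 and 1518, and CHAC1, which degrades glutathione, about 553 and 179. The list with the chaperones of the endoplasmic reticulum differed in its counts: of 25 genes of the unfolded protein response 2 were higher, led by HERPUD1 at 0.77 in the authors' deposited table, and 6 lower, led by PDIA4 and DNAJB11, a share (32%) near the 31.4% of all genes. Cytosolic heat shock chaperones gave 2 higher and 13 lower of 23 (56.5% lower, beside 15.6% of all genes), with CHORDC1 at −0.74 and HSPA4 at −0.55 in the authors' deposited table.

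Promoters of CHAC1 and ASNS are shown because they carry the sequence through which ATF4 and its partners are known to act, written here as TGATGNAA and searched on both strands. They come from RefSeq (GRCh38.p14), run 5′ to 3′ along the gene and end at its start, and capitals mark the match. The genes whose promoters are shown in this and the following paragraphs were chosen after their values were seen.

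CHAC1 (chr15:40953257-40953470, + strand): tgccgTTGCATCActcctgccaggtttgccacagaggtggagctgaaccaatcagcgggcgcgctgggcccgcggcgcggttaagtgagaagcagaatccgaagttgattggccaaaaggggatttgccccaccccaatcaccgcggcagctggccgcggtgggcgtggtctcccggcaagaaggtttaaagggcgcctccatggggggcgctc

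ASNS (chr7:97872409-97872558, - strand): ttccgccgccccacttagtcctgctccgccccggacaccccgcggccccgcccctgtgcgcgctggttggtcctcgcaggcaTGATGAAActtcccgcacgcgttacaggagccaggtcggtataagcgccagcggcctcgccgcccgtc

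In the 250 bases before the start, the letters occurred in 4 of the 15 higher ATF4 targets with a promoter and in 1 of the 7 that did not pass. The share was 3.89% of all 27305 RefSeq genes and 2.20% of the 10013 with a value in SKMES1.

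Interferon response genes that changed mostly rose. Of 36 measured type I interferon genes 18 were higher and 2 lower (median log2 0.34), and of 19 interferon gamma genes 11 were higher and 1 lower (median 0.51), beside 15.8% and 15.6% over all genes. OASL averaged about 679 normalized counts in GSK712 cells and 221 in DMSO cells, IFIT2, an RNA-binding antiviral protein, about 1025 and 363, and UBE2L6, the conjugating enzyme of ISG15, about 4440 and 2543. IFI6 stood at 0.81 and HERC5, the ISG15 ligase, at 0.78 in the authors' deposited table. The lower genes were IFI44L at −0.54 and OAS3 at −0.53 in the authors' deposited table. CD74, the invariant chain of class II antigen presentation, averaged about 1646 in GSK712 cells and 608 in DMSO cells. The chemokine CXCL11 rose 9.49-fold from a low level, with about 189 normalized counts in GSK712 cells and 20 in DMSO cells. SOCS3, a feedback inhibitor of cytokine signalling, was the lower one of the interferon gamma list at −0.74 in the authors' deposited table. Among 16 sensors of nucleic acids 37.5% were called, near the 31.4% of all genes: 4 were higher, including TLR3 at 1.04 and TMEM173 (STING) at 0.68, and TREX1 at −0.55 and TBK1 at −0.33 were lower in the authors' deposited table.

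Promoters of 3 interferon genes are shown because they hold the interferon-stimulated response element, that is the letters GAAA, any pair of bases, and GAAA again, searched on both strands, overlapping matches included. They come from the same source and end at the gene's start, and capitals mark every match.

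IFIT1 (chr10:89392473-89392622, + strand): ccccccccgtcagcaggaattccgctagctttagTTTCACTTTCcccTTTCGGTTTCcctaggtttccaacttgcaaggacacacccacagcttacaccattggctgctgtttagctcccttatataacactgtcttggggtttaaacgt

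IFI6 (chr1:27672193-27672353, - strand): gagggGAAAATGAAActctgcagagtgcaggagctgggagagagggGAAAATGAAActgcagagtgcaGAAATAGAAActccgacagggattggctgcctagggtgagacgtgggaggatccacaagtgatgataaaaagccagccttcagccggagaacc

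HERC5 (chr4:88456969-88457118, + strand): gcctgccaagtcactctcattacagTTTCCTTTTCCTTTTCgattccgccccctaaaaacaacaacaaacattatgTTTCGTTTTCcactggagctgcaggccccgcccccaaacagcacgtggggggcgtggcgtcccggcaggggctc

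The element occurred in 7 of the 14 higher members with a promoter in the table, in both lower members and in 6 of the 10 that did not pass. It was present in 3.71% of all RefSeq genes and 3.35% of those with a value in SKMES1, and its presence did not separate the members that rose from the others in these counts.

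Genes of MHC class I presentation that changed mostly rose, and several checkpoint ligands fell. Of 21 genes of class I presentation 10 were higher (47.6%, beside 15.8% of all genes) and 2 lower. In the authors' deposited table HLA-B stood at 0.67, HLA-C at 0.51, HLA-E at 0.55, ERAP2 at 0.57 and B2M, the shared light chain, at 0.30 (adjusted p = 0.000983). TAP2 at −0.40 and NLRC5 at −0.34 were the lower genes in the authors' deposited table. HLA genes are closely similar in sequence, so their counts are uncertain. Of 17 ligands of immune checkpoints and natural killer cells, 1 was higher and 6 lower (35.3%, beside 15.6% of all genes): NT5E as above, PDCD1LG2 (PD-L2) with about 295 normalized counts in GSK712 cells and 640 in DMSO cells, CD274 (PD-L1) with 2296 and 3397, and CD47, CD58 and MICA. The higher one was VSIR at 0.91 (adjusted p = 1.07e-10) in the authors' deposited table.

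Cytokines and NF-kB targets split by gene. Of 27 measured, 7 were higher (25.9%, beside 15.8% of all genes) and 9 lower (33.3%, beside 15.6%). The median log2 fold change was −0.05 and turned to 0.17 when only the top 75% of genes by expression were kept. CXCL5, PTX3, the interleukin-6 family cytokine LIF, CXCL8 and CXCL1 fell. CXCL8, also called interleukin-8, averaged about 545 normalized counts in GSK712 cells and 1370 in DMSO cells, and LIF about 4528 and 8803. CCL2, a monocyte-attracting chemokine, rose to about 1488 in GSK712 cells, against 678 in DMSO cells. TRAF1, TNFAIP3 (A20, an inhibitor of NF-kB), TNFAIP2 and BIRC3 rose by log2 fold changes of 0.42 to 0.55 in the authors' deposited table.

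Several of the lower cytokines are neighbours, as are the EGF-family ligands beside them. Chromosome 4 from 73740506 to 75050115 (GRCh38, GENCODE 29), a stretch of 1310 kb chosen after its values were seen, runs from CXCL8 to PARM1 and holds 13 coding genes with values. All 13 had negative fold changes, 11 were called lower (beside 15.6% of all genes) and none higher, with a median log2 fold change of −1.08. Since the ends were set with these values in view, the count is a description of the stretch. EREG (epiregulin, a ligand of EGFR) averaged about 46882 normalized counts in GSK712 cells and 97475 in DMSO cells, and AREG stood 2.44-fold lower. BTC (betacellulin) stood at −0.78 and EPGN (epigen) at −1.13 in the authors' deposited table. MTHFD2L, a folate enzyme that lies between the chemokines and the ligands, averaged about 869 in GSK712 cells and 2181 in DMSO cells. CXCL6 at −0.86 and PF4 at −0.59 did not pass (adjusted p = 0.144 and 0.471 in the authors' deposited table), and neither did the 2 antisense RNAs of the stretch. Further along the chromosome, CXCL10 and CXCL11, from 76021117 to 76041415, were called higher. Other lines had values for 2 to 9 of the 13 genes, with 7 in EBC1, of which 3 were lower, and 9 in SW900, of which 2 were lower and 1 higher. Of all genes shared with SKMES1, 5887 of 12616 were called in EBC1 and 4652 of 13041 in SW900, in either direction.

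**Figure D3:**
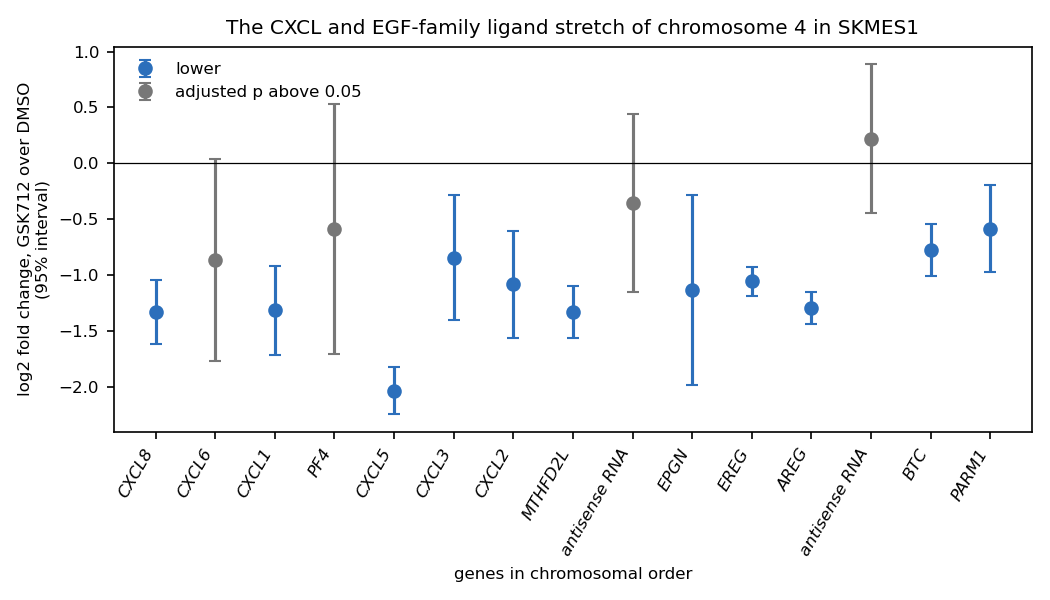
Points are log2 fold changes of GSK712 over DMSO in SKMES1 (y) with 95% intervals, for the 15 genes with values on chromosome 4 between CXCL8 and PARM1, in chromosomal order (x). Blue points are the 11 coding genes called lower; the 4 grey points, 2 of them antisense RNAs, did not pass.

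Promoters of CXCL1, CXCL2, CXCL3 and CXCL5 are shown because they hold an NF-kB motif, in capitals, at a similar distance from the start. They were picked for holding it. For CXCL8 of the same stretch no match to the consensus searched was found, and a site that departs from that consensus would be missed. CXCL6, which is not in the list, is not shown. The motif was searched by its consensus on both strands, and the sequences again come from RefSeq (GRCh38.p14) and end at the gene's start.

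CXCL1 (chr4:73869243-73869392, + strand): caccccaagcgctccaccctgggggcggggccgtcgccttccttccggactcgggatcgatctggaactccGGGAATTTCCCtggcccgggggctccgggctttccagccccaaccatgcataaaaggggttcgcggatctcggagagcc

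CXCL2 (chr4:74099196-74099345, - strand): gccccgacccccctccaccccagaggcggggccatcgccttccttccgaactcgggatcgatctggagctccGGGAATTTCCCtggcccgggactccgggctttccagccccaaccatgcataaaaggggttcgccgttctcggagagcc

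CXCL3 (chr4:74038690-74038839, - strand): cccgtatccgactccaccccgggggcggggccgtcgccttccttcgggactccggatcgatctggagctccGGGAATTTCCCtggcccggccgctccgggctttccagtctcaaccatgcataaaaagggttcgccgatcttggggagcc

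CXCL5 (chr4:73998678-73998827, - strand): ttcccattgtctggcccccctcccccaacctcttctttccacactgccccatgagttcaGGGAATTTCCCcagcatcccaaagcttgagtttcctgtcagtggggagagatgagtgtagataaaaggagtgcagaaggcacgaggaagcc

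The promoters of CXCL1, CXCL2 and CXCL3 are similar over the whole length shown. Whether their transcripts are similar enough to make their counts uncertain was not tested. Of the 7 lower members of the NF-kB list with a RefSeq promoter, 6 held the motif, as did 3 of 5 higher members and 5 of 9 that did not pass, beside 6.28% of all RefSeq genes and 8.12% of those with a value in SKMES1.

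MAPK output genes that changed mostly fell, and receptor tyrosine kinases moved in both directions. Of 28 genes of MAPK feedback and ETS output 14 were lower (50%, beside 15.6% of all genes) and 3 higher (median log2 −0.22). AREG and EREG led, followed by PHLDA1 with about 8275 normalized counts in GSK712 cells and 15197 in DMSO cells, HBEGF, another EGFR ligand, with 2067 and 3746, and FOSL1, an AP-1 subunit, with 22574 and 31969. JUNB, DUSP10 and EPHA4 were the higher genes. Of 18 receptor tyrosine kinases 7 were higher and 5 lower (38.9% and 27.8%, beside 15.8% and 15.6% of all genes). EGFR averaged about 23834 in GSK712 cells and 39124 in DMSO cells, and MET and PDGFRA were also lower, whereas INSR stood at 1.00, PDGFRB at 1.01 and FGFR4 at 0.66 in the authors' deposited table.

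Proliferation genes that changed almost all fell, by small amounts. In mitosis and G2/M 19 of 36 genes were lower and 1, CENPF, higher (median log2 −0.21), beside 15.6% lower and 15.8% higher over all genes. DNA replication gave 13 lower and 0 higher of 34 (median −0.18), and homologous recombination and Fanconi repair 10 lower and 0 higher of 27 (median −0.20). CLSPN, a replication checkpoint adaptor, averaged about 2494 normalized counts in GSK712 cells and 4330 in DMSO cells, and RRM2, a ribonucleotide reductase subunit, about 11464 and 15704. MKI67, the proliferation antigen, stood at −0.25 (SE 0.082, adjusted p = 0.0125) in the authors' deposited table. Ribosome biogenesis gave 17 lower and 0 higher of 38, led by DDX10 and BOP1 at −0.69 and −0.67 in the authors' deposited table. Proteasome subunits gave 10 lower and 0 higher of 31 (32.3% lower), led by PSMD11 at −0.54 in the authors' deposited table. The ribosomal proteins themselves gave 8 higher and 4 lower of 79, fewer calls (15.2%) than the 31.4% of all genes.

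Hypoxia and glycolysis genes that changed mostly fell, and sterol genes that changed mostly rose. Hypoxia and glycolysis gave 15 lower (38.5%, beside 15.6% of all genes) and 4 higher of 39 (median log2 −0.17), and 20 did not pass, with STC1 as above, PFKP, a phosphofructokinase, at about 13871 normalized counts in GSK712 cells and 21948 in DMSO cells, and ANGPTL4, a lipase inhibitor, at 1249 and 2713. Cholesterol and fatty acid synthesis gave 11 higher (39.3%, beside 15.8% of all genes) and 4 lower of 28 (median 0.23), and 13 did not pass. SREBF2, the master regulator of sterol genes, averaged about 6201 in GSK712 cells and 3024 in DMSO cells, and INSIG1, which retains its protein in the endoplasmic reticulum, about 4442 and 2596. The higher genes also included LSS, SQLE and HMGCS1 of the sterol pathway, and the lower genes included ELOVL6, FASN and FADS1 of fatty acid synthesis. Fatty acid oxidation gave 2 higher and 6 lower of 26, a share of calls (30.8%) at the level of all genes (31.4%). Of these, HADH stood at −0.80 and CPT2 at −0.61, whereas PPARA stood at 1.08, in the authors' deposited table. ASS1, which joins citrulline and aspartate on the way to arginine, rose to about 681 in GSK712 cells, against 165 in DMSO cells.

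Most measured epithelial junction genes rose, and mesenchymal genes that changed mostly rose. Of 18 measured genes of epithelial junctions 11 were higher (61.1%, beside 15.8% of all genes), 1 lower and 6 not past the test (median log2 0.42), led by JUP, ST14, SPINT1, PKP2 and F11R. ST14 (matriptase) averaged about 524 normalized counts in GSK712 cells and 177 in DMSO cells, and JUP (plakoglobin) about 3817 and 2354. CLDN1 was the lower one at −0.66 in the authors' deposited table. Of 46 keratins and squamous differentiation genes 16 had values, 7 higher, 1 lower and 8 not past the test. KRT17 stood at 2.89 (SE 0.321) and KRT80 at 1.08 in the authors' deposited table, and KRT7, a keratin of simple epithelia, averaged about 65702 in GSK712 cells and 39203 in DMSO cells. TP63 stood at 0.26 (adjusted p = 0.0575) and did not pass in the authors' deposited table, nor did EPCAM, KRT18 or KRT19. Of 27 mesenchymal genes 10 were higher, 3 lower and 14 not past the test. FN1 (fibronectin) averaged about 52886 in GSK712 cells and 22813 in DMSO cells, SERPINE2 about 18703 and 9008, and VIM stood at 0.30 in the authors' deposited table. PDGFRA, LOX and TWIST2 were the lower ones. The core matrix split into 10 higher and 12 lower of 34 (29.4% and 35.3%), with HSPG2, THBS1 and COL18A1 higher and COL4A5, COL4A6 and LAMA4 lower. Of 15 integrins 4 were higher and 4 lower: ITGB6 at 1.34 and ITGB2 at 1.28 were among the higher ones and ITGA10 at −1.43 among the lower ones in the authors' deposited table.

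**Figure D4:**
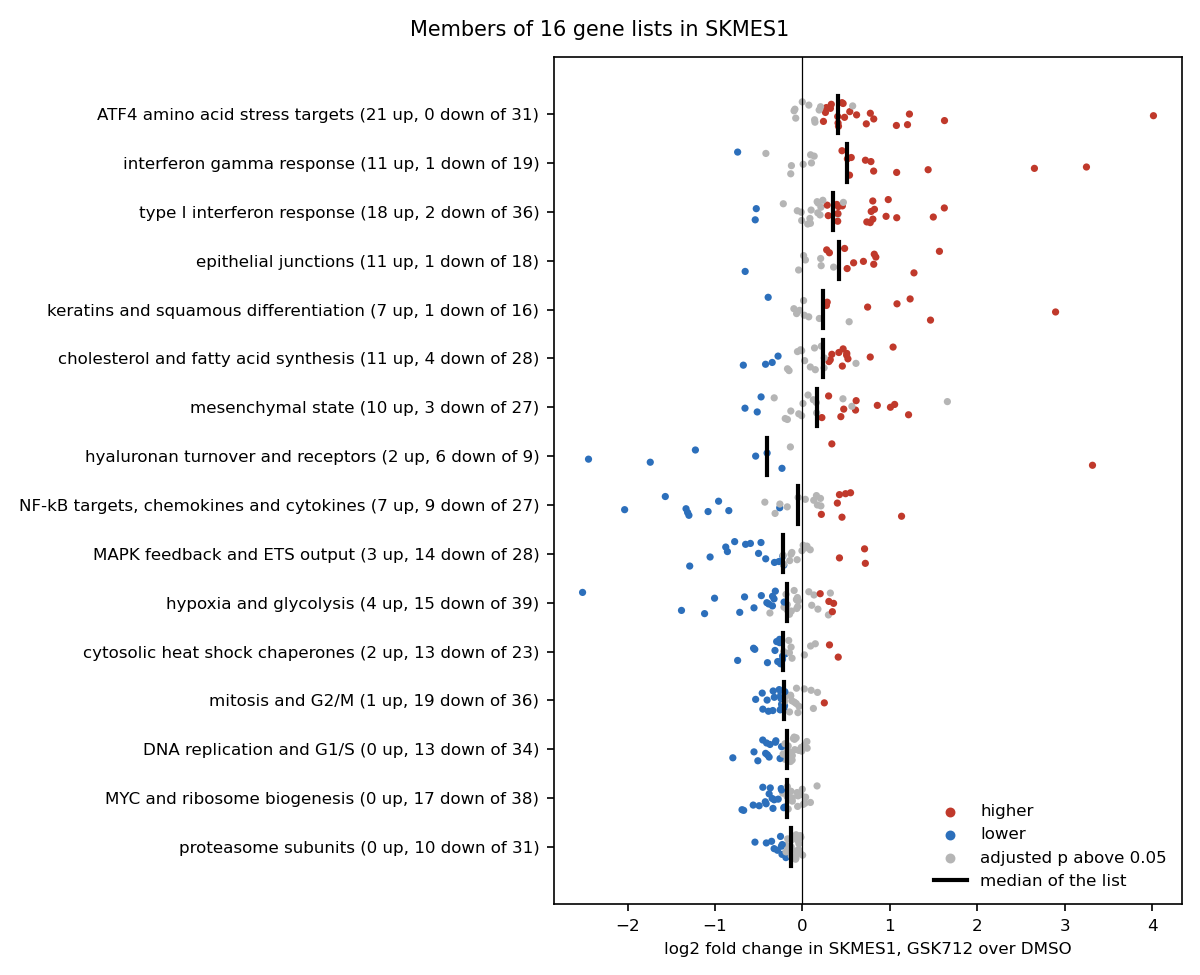
Each point is a measured member of a gene list (y), placed by its log2 fold change of GSK712 over DMSO in SKMES1 (x), red where called higher, blue where called lower and grey otherwise; black bars are list medians. Medians run from 0.51 for the interferon gamma response to −0.40 for hyaluronan turnover, and the spread within the NF-kB list, from −2.03 to 1.13, exceeds that of the proliferation lists.

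RNA-processing genes, whose products include many substrates of the type I enzymes, were not all called more often than other genes. Of 35 hnRNPs and RGG-motif proteins 7 were lower and 3 higher, a share of calls (28.6%) slightly below the 31.4% of all genes. RBM3, a cold-inducible RNA-binding protein, averaged about 12634 normalized counts in GSK712 cells and 7891 in DMSO cells. SR proteins and splicing kinases gave 8 lower and 4 higher of 23 (52.2% called). Among 24 host transcripts of small nucleolar RNAs 9 were higher (37.5%, beside 15.8% of all genes) and 1 lower, with SNHG8 at 0.99 and SNHG5 at 0.70 in the authors' deposited table. Of 9 class IIa histone deacetylase and MEF2 genes 3 were higher and 1 lower: HDAC5 stood at 1.22, MEF2C at 0.37 and MEF2D at 0.27, and HDAC4 at −0.90, in the authors' deposited table.

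How far SKMES1 differs from the other 9 lines was tested in the 9339 genes with values in all 10, with limma and 1 fold change per line. Of the leading genes, these held only PBXIP1, NEAT1, HAS3, ADCY3, ZBED1, SPHK1 and OPN3. The others, among them CEMIP, BMF, STC1 and CXCL5, were not among these genes. Of the 9339 genes none passed (0%), and 67 had an unadjusted p under 0.05. A further run took the 11887 genes with values in at least 6 other lines, BMF included, and none passed. CEMIP, STC1 and CXCL5 had values in fewer lines and were not tested. The values that follow are from the 9339 genes. A uniform spread of p-values would put more genes under 0.05. In simulated data, 100 genes were shifted by 2 and 100 by 4 on the log2 scale in a single line. The test recovered 88% of those shifted by 2. Smaller shifts and smaller sets of shifted genes were not simulated, so this share does not give the power of the test in these data. ZNF385A, a zinc finger protein, had the smallest p, with a log2 fold change of 1.76 in SKMES1 and 0.15 ± 0.22 in the other lines (SD, n = 9 lines; limma adjusted p = 0.315). HAS3 stood at −2.45 in SKMES1 and −0.47 ± 0.61 in the others (SD, n = 9 lines), which did not pass either (limma adjusted p = 1). Of 2861 SKMES1 calls in these genes, 577 had the same sign in all 9 other lines (20.2%), against 5.25% of the genes not called. Across genes the fold changes of SKMES1 correlated most with those of SW900 (Pearson r = 0.57 over 13041 genes) and EBC1 (r = 0.57 over 12616 genes), both squamous lines. The adenocarcinoma line NCIH1975 came next (r = 0.50), above the squamous lines NCIH226 (r = 0.44), LK2 (r = 0.43) and NCIH520 (r = 0.41). The adenocarcinoma lines NCIH522 (r = 0.36), PC9 (r = 0.36) and NCIH1563 (r = 0.23) were lowest. Genes are not independent replicates, and the lines share the same workflow.

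Against these 2 closest lines, differences were tested gene by gene from the deposited fold changes and SEs with a z test, adjusted over all shared genes. This test was added after the data were seen, and the SEs may cover technical spread only. The genes named here were picked for large changes in SKMES1, which favours changes beyond those of another line. Where SKMES1 changed more, the adjusted p of the difference is thus descriptive. SKMES1 lay above EBC1 in 1083 genes and below it in 904, together 15.7%, and above SW900 in 768 and below it in 580, together 10.3%. BMF stood at 3.31 in SKMES1 and 3.57 in EBC1, a difference of −0.26 (SE 0.168) that did not pass (adjusted p = 0.327), and rose less in SW900, to 0.77 (adjusted p of the difference = 3.6e-61). The fall of HAS3 exceeded that in both, with −0.97 in EBC1 and −0.91 in SW900 (adjusted p of the differences = 8.51e-21 and 1.39e-08). CEMIP rose more in SKMES1 than in SW900, where it stood at 1.64 (adjusted p of the difference = 8.75e-07), and had no value in EBC1. MMP7 stood at 1.90 in SKMES1 and 4.82 in EBC1, and OPN3 at −1.25 in SKMES1 and −2.91 in SW900, so both moved less in SKMES1 (adjusted p of the differences = 3.26e-19 and 3.91e-21). AREG stood at −1.29 in SKMES1 and −1.17 in EBC1, a difference of −0.12 (SE 0.139) that did not pass (adjusted p = 0.654), and at −0.20 in SW900 (adjusted p of the difference = 1.27e-19).

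Splits from the closest lines also ran through many members of some lists, and not all such lists are given here. Sterol and fatty acid genes stood higher in SKMES1 than in EBC1 for 26 of 28 shared members and lower for 0 (92.9%, beside 15.7% of all shared genes), with medians of 0.23 in SKMES1 and −0.60 in EBC1. INSIG1 stood at 0.78 in SKMES1 and −1.01 in EBC1, and SQLE at 0.47 in SKMES1 and −0.52 in EBC1. Against SW900, 13 of 28 sterol and fatty acid genes stood higher in SKMES1 and 0 lower, with a median of −0.15 in SW900. ATF4 targets stood higher than in EBC1 for 22 of 31 and lower for 1, with medians of 0.41 in SKMES1 and −0.55 in EBC1. ASNS stood at 1.07 in SKMES1 and −1.55 in EBC1, whereas NUPR1, at 4.01 in SKMES1 and 5.93 in EBC1, was the lower one. In SW900 the ATF4 targets also had a positive median, of 0.27, and 9 of 31 stood higher in SKMES1 and 3 lower. Type I interferon genes stood higher than in SW900 for 33 of 36 and lower for 0 (91.7%, beside 10.3% of all shared genes), with medians of 0.34 in SKMES1 and −0.50 in SW900. IFIT1 stood at 1.08 in SKMES1 and −0.87 in SW900, and OASL at 1.62 in SKMES1 and −0.60 in SW900. Against EBC1, 9 of 32 type I interferon genes stood higher and 5 lower, with medians of 0.34 in SKMES1 and 0.33 in EBC1. MAPK output genes stood higher than in EBC1 for 12 of 27 and lower for 4, and lower than in SW900 for 13 of 28 and higher for 1, with medians of −0.22 in SKMES1, −0.79 in EBC1 and 0.01 in SW900. DNA replication genes stood higher than in EBC1 for 24 of 34 members and lower for 0, with medians of −0.18 in SKMES1 and −0.67 in EBC1. Against SW900, 4 of these 34 stood higher in SKMES1 and 0 lower, with a median of −0.28 in SW900.

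**Figure D5:**
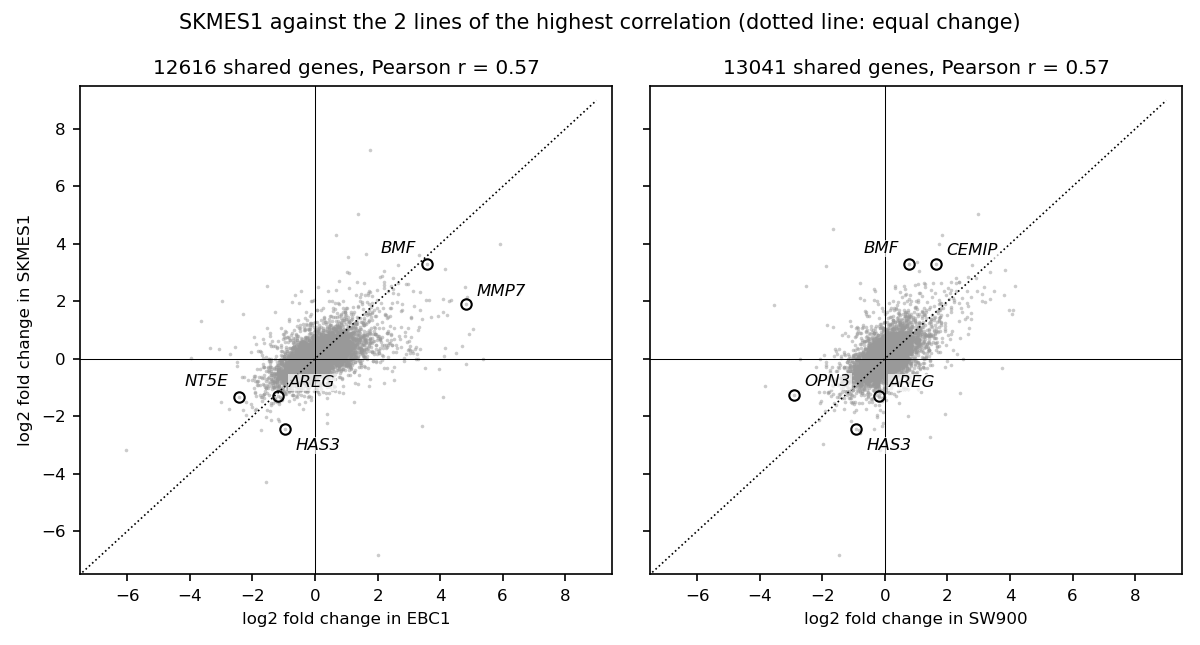
Points are genes shared by SKMES1 (y) and EBC1 (left, x) or SW900 (right, x), placed by the log2 fold change of GSK712 over DMSO in each line; the dotted line marks equal change. BMF lies near the dotted line against EBC1 and well above it against SW900, and HAS3 lies below it in both panels.

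Some SKMES1 changes have no counterpart to compare. Values in SKMES1 alone were present for 303 genes, of which 48 were higher and 52 lower, a share of calls (33.0%) near the 31.4% of all genes. Above the median count these included NTSR1 and CXCL5 as above, MUC5AC, a gel-forming mucin, at −1.19, ADGRL4 at −1.09 and PDGFRA at −0.66, and the higher gene SYT13 at 0.67, in the authors' deposited table. Of the 632 SKMES1 calls beyond 1 on the log2 scale, 159 were not called in the same direction in any other line, genes without a value elsewhere included. Values in at least 5 other lines were present for 339 of the 632, and 176 of these were called the same way in 50% or more of those lines. The same counts were not made over all SKMES1 calls, so 159 and 176 cannot be read as many or few. They also depend on how many genes a line had called. Among genes shared with SKMES1 this ran from 168 in NCIH522 to 5887 in EBC1.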

How the data were processed

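RNA was sequenced as stranded mRNA libraries, per the labels' protocols. The submitters' processing notes name FastQC, Salmon 0.12.0, the build GRCh38 and DESeq2, whose version is not given in the sources used here. The authors left out genes of each comparison at an FPKM of up to 1, per the labels. The deposited log2 fold changes and SEs are in log2 units, the adjusted p column holds p-values as deposited, and the authors' Wald statistic is a score that matched fold change over SE within 0.105. The deposited mean normalized count is a signal over the libraries of a line: summed over genes it was 61857363 in SKMES1 and 57647556 to 108557964 over the lines. Library depths were not analysed here, and no counting intervals are given.

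Symbols are those deposited, and positions are from GENCODE 29, which held 14352 of the 14367 IDs. SKMES1 was compared with the other 9 lines by limma 3.58.1 in R 4.3.3. The test was run on simulated data for the 9339 genes, with 100 shifted by 2 and 100 by 4 (88% and 99% recovered, 6.03% false calls). These shares hold for the simulated settings only. Fold changes, 95% intervals and group means were computed in Python 3.11.15. Named genes are the 15 leading ones in each direction above the median count, a set of genes always followed, and up to 5 members per direction of a list by adjusted p. Members, lists (51) and rules were chosen with earlier results of these data known, and lists carry no test.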

Additional observations from a re-analysis of the deposited data

Results flagged for a closer look

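Of the 30 leading genes, 7 were called in the opposite direction in another line. They were picked by those opposite calls, so a test of the difference on the same fold changes would add no support, and the log2 fold changes are given as values. LINC00842 stood at 1.97 in SKMES1 and −1.99 in NCIH1563, 3.96 apart. NT5E stood at −1.32 in SKMES1 and 0.84 in NCIH1563, a difference of −2.17. Against NCIH226, the differences were 2.14 for C1S (1.38 in SKMES1 and −0.76 in NCIH226), 3.02 for ELF3 (1.35 and −1.67) and −1.83 for THSD4 (−1.33 and 0.50). Against NCIH520, the differences were −1.89 for PTX3 (−1.57 in SKMES1 and 0.32 in NCIH520) and −2.22 for AREG (−1.29 and 0.93).

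In 5 gene lists the medians of SKMES1 and a closest line had opposite signs and at least 2 in 3 shared members differed one way by the z test on deposited fold changes and SEs. These lists were picked by those counts. Against EBC1 these were 22 of 31 ATF4 targets, 26 of 28 cholesterol and fatty acid genes and 8 of 12 integrins, all higher in SKMES1. Of all genes shared with EBC1, 15.7% differed in either direction. Against SW900 they were 33 of 36 type I interferon genes and 11 of 16 sensors of nucleic acids, again higher in SKMES1. Of all genes shared with SW900, 10.3% differed in either direction.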

How the results depend on the processing

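Recomputing the Benjamini-Hochberg adjustment left all 4 counts of SKMES1 genes as they were, and centring on the median or a threshold of 0.01 kept them within 1.5 times. Keeping the top 75% of genes by expression left 125 genes higher and 71 lower by at least 1 on the log2 scale, against 431 and 201, because fewer genes of low count were tested. With SEs 1.5 times as large, 927 genes were higher and 875 lower, against 2267 and 2247, and of the leading genes CGB5, CGB8 and ELF3 no longer passed. The difference from the other 9 lines gave 0 genes above and 0 below under every alternative run (other squamous lines only, at least 6 other lines, centring, division by the SD, an ordinary linear model, top 75%, and, added after the data were seen, without the 3 lines of the largest SEs), and 0 genes with each line left out, with 51 to 126 genes at an unadjusted p under 0.05. Medians of 47 lists were recomputed in 2 ways. Centring shifted each by 0.001 only, so it could not move them. With the top 75% by expression kept, 4 list medians moved by more than the members' median SE. NF-kB targets went to 0.17 (from −0.05), matrix proteases to −0.19 (from 0.09) and semaphorins to −0.13 (from 0.08), which turned sign. Keratins went to 0.05 (from 0.23). No paired analysis was possible because the deposited comparison holds no values per library, and for the same reason no library could be left out.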
